A study of Homo sapiens with 18 samples.

Results

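TG003 was compared with DMSO in KMS12-BM, a human multiple myeloma cell line, in strand-specific RNA-seq libraries. The members are the protein-coding genes of the count table, leaving out pseudogenes and the ribosomal protein genes whose symbols start with RPL or RPS. Of 19304 such genes among 57905 in the table, 11684 passed the filter on low counts, and 100 RPL and RPS genes were left out. Cells given 0.4 mM TG003 for 24 h (3 libraries) were set against cells labelled as untreated (DMSO), for which no duration is given (3 libraries), so 6 of the 18 libraries of the series are compared. The series also holds KMS12-BM given 0.1 mM amiloride, and the plasma cell leukemia line JJN3 given TG003 (0.4 mM), amiloride (0.4 mM) or DMSO, with 24 h for each drug. The labels do not say whether replicate libraries are separate cultures, so p-values measure the spread between these samples, which may be technical.

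TG003 is a small molecule that competes with ATP in the CDC-like kinases (CLK), nuclear enzymes that phosphorylate the serine- and arginine-rich tails of SR proteins. Phosphorylated SR proteins bind exons and recruit the spliceosome, and CLK activity also sets the splicing of the CLK transcripts themselves. Myeloma cells are malignant plasma cells. They depend on the transcription factor IRF4, which acts with MYC, and on a large endoplasmic reticulum (ER) whose chaperones fold secreted immunoglobulin.

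A gene was called higher or lower in TG003 where the adjusted p of edgeR's quasi-likelihood test was under 0.05 (Benjamini-Hochberg, over all 15765 genes tested). Levels are CPM, read counts relative to the scaled library size, which do not correct for gene length and are compared only between libraries of the same gene. Fold changes are on the log2 scale, TG003 over DMSO, with the standard error after ±. Of the 11684 genes, 3227 were higher in TG003 (27.6%) and 3203 were lower (27.4%), and 817 of the higher and 544 of the lower genes differed by at least 2-fold. The CPM ranges of the groups did not overlap in 7768 genes (66.5%). These shares are the background for every count that follows.

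The libraries stand apart in how reads were placed. Reads in genes ranged from 29794926 to 38852481 in the TG003 libraries, and between 30129927 and 50570234 in the DMSO libraries. Processed pseudogenes, which are intron-less copies of messengers, held 0.106% to 0.130% of these reads with TG003 and 5.46% to 5.63% with DMSO. Multiply aligned records accounted for 7.79% to 8.23% with TG003 and 16.1% to 16.2% with DMSO, and records in no gene 7.56% to 8.17% with TG003 and 12.1% to 12.4% with DMSO. All 6 TG003 libraries of the series, in both lines, lay at 0.106% to 0.130% in processed pseudogenes and the 12 other libraries at 4.50% to 5.63%, so the drug and the read placement cannot be told apart. Genes are therefore marked below (near copy) where another annotated transcript matched theirs at 90% identity or more over 100 bases or more. The same mark was given to genes whose transcript matched the genome elsewhere at these limits, and to genes whose exons held such a match. It was also given to genes with a pseudogene named for them. Genes are marked as well where an exon of another gene overlapped theirs on the same strand (overlap). Of the 11684 genes, 3424 had a near copy, 2228 an overlap and 6778 neither. These 6778 separable genes divided almost as all genes did, with 1819 higher (26.8%) and 1899 lower (28.0%).

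Another measure moved with the fold change across the separable genes. Ordered by exon junctions per kb of transcript, the lowest of 5 equal groups had a median log2 of -0.25 and the highest one of 0.28, and the Spearman correlation over 6763 separable genes was 0.336 (0.476 in JJN3). With this trend removed from each library, 2502 genes (21.4%) were higher and 3526 (30.2%) lower (51.6% in all, and 50.5% of the separable genes), and the log2 values with the trend removed are given below where they change a call. The correlation is across genes of the same libraries and is a description only. Its part in the results below was not tested beyond that removal. The fit of the trend was not centred for each library, so its removal also shifted the median log2 of all genes by -0.061. Counts with the trend removed therefore lean toward lower genes, by an amount that was not tested.

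**Figure D1:**
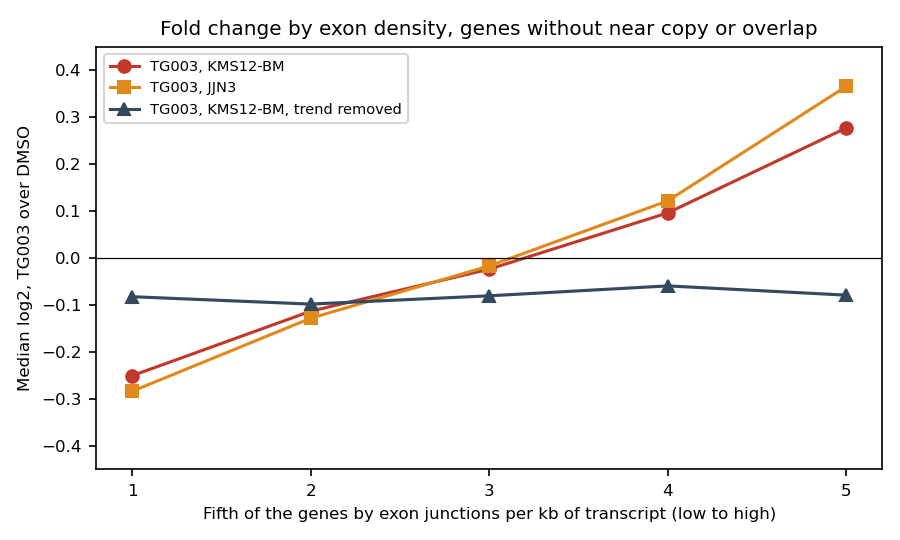
Median log2 fold change of TG003 over DMSO (vertical axis) in 5 groups of separable genes ordered by exon junctions per kb of transcript (horizontal axis), for KMS12-BM, for JJN3 and for KMS12-BM with the trend removed. The KMS12-BM line runs upward with exon density, with medians of -0.25, -0.11, -0.024, 0.10 and 0.28, and the line with the trend removed is flat and slightly below 0.

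The libraries carried plasma cell markers. IRF4 averaged 1182 CPM, the lymphoid factor IKZF1 749 CPM and MZB1 329 CPM in the DMSO libraries, whereas SDC1 was low at 13.8 CPM. Of 25 markers of T cells, NK cells, myeloid, erythroid, platelet, stromal, endothelial and epithelial cells in the table, 11 or 12 were at 0 in a TG003 library and 9 to 11 in a DMSO library. Their summed level was 147 to 165 CPM with TG003 and 144 to 163 CPM with DMSO. Most of it came from the epithelial markers EPCAM and KRT8. Unlike the CPM of single genes, these sums are relative to the reads in genes without scaling. The scaling factors were 1.02 to 1.04 with TG003 and 0.957 to 0.973 with DMSO. Scaled sums would thus be lower with TG003 and higher with DMSO, so no order of the groups is read from them. In bulk RNA, fewer cells of a type and less RNA per cell cannot be told apart.

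The transcript of CLK1, a kinase that TG003 inhibits, was 3.70-fold as abundant after treatment. CLK1 (chr2:201717732-201729414 in GRCh37, minus strand) had 71.4, 87.3 and 82.7 CPM in the TG003 libraries, against 19.8, 21.2 and 24.0 CPM in the DMSO libraries. No TG003 library came near a DMSO library, a difference of log2 1.89 ± 0.15, adjusted p = 9.4e-07. CLK4, the closest relative of CLK1, had 16.8, 20.0 and 17.1 CPM in the TG003 libraries, against 3.88, 5.45 and 5.73 CPM in the DMSO libraries, again without overlap (log2 1.82 ± 0.16, adjusted p = 1.98e-06; its exons overlap another gene's). CLK2 had 113, 121 and 119 CPM in the TG003 libraries, against 71.4, 69.7 and 71.7 CPM in the DMSO libraries (log2 0.73 ± 0.086, adjusted p = 2.51e-05; near copy). CLK3 averaged 56.1 ± 2.10 CPM with TG003 and 29.9 ± 1.80 CPM with DMSO (log2 0.91 ± 0.10, adjusted p = 1.57e-05; near copy). All 4 CLK genes were thus higher in TG003. With amiloride in the same line, set beside TG003 further below, CLK1, CLK3 and CLK4 were also higher and CLK2 was not called.

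The related kinases did not move together. Of 15 CLK, DYRK, SRPK and HIPK genes, 5 were higher, 6 lower and 4 not called (5 higher and 4 lower with the exon-density trend removed). DYRK1B, a kinase that keeps cells quiescent, averaged 5.03 ± 0.441 CPM with TG003 and 2.55 ± 0.2999 CPM with DMSO (log2 0.99 ± 0.18, adjusted p = 0.000554; overlap). DYRK1A, which TG003 is known to inhibit as well, had log2 0.11 ± 0.12, adjusted p = 0.456 and was not called. SRPK1, the cytoplasmic SR protein kinase, fell to 259.8 CPM in TG003 libraries, against 357 CPM in DMSO libraries (log2 -0.46 ± 0.063, adjusted p = 7.53e-05; near copy). HIPK2, a nuclear kinase, fell to 26.1 CPM against 43.6 CPM (log2 -0.74 ± 0.094, adjusted p = 4.43e-05).

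The SR proteins, substrates of these kinases, had lower transcript levels. Of 12 classical SR and TRA2 splicing proteins, 8 were lower, none was higher and the median log2 was -0.47, beside a median of -0.0027 over all 11684 genes. Removing the exon-density trend left 8 lower and none higher. SRSF4 had 61.3, 58.6 and 62.4 CPM in the TG003 libraries, against 105, 96.9 and 96.9 CPM in the DMSO libraries (log2 -0.71 ± 0.078, adjusted p = 1.39e-05). SRSF1, the founding SR protein, had 373, 357 and 387 CPM in the TG003 libraries, against 568, 531 and 539.6 CPM in the DMSO libraries (log2 -0.55 ± 0.063, adjusted p = 1.84e-05; near copy and overlap). Every TG003 library lay below every DMSO library for both genes. SRSF2 fell by 0.79 and SRSF7 by 0.56 on the log2 scale, while SRSF5 was not called (log2 0.11 ± 0.086, adjusted p = 0.283).

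Other splicing factors were mixed. The list of SR-related proteins also holds the kinase CLK4, counted above as well, which was its largest rise. Of its 32 genes, 6 were higher and 9 lower (3 and 12 with the exon-density trend removed). Among them THRAP3 and BCLAF1, a pair of related SR-rich proteins of messenger processing, fell by 1.04 and 0.82 on the log2 scale, and RBM39, a U2AF-related factor, rose by 0.45 (all 3 with near copies). Of 27 hnRNP proteins, which bind introns and oppose SR proteins at many exons, 7 were higher and 13 lower. Of 38 components of the U2 and tri-snRNP particles, 13 were higher and 7 lower (4 higher and 11 lower with the exon-density trend removed). Of 18 nonsense-mediated decay and exon junction genes, 8 were higher and 3 lower (5 and 4 with the trend removed). Transcription elongation factors split 8 higher and 5 lower of 28 (6 and 7 with the trend removed). HEXIM1, the inhibitor of the elongation kinase P-TEFb, had log2 -0.49 ± 0.090, adjusted p = 0.000739, but with the trend removed its log2 of -0.17 was not called (adjusted p = 0.117).

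**Figure D2:**
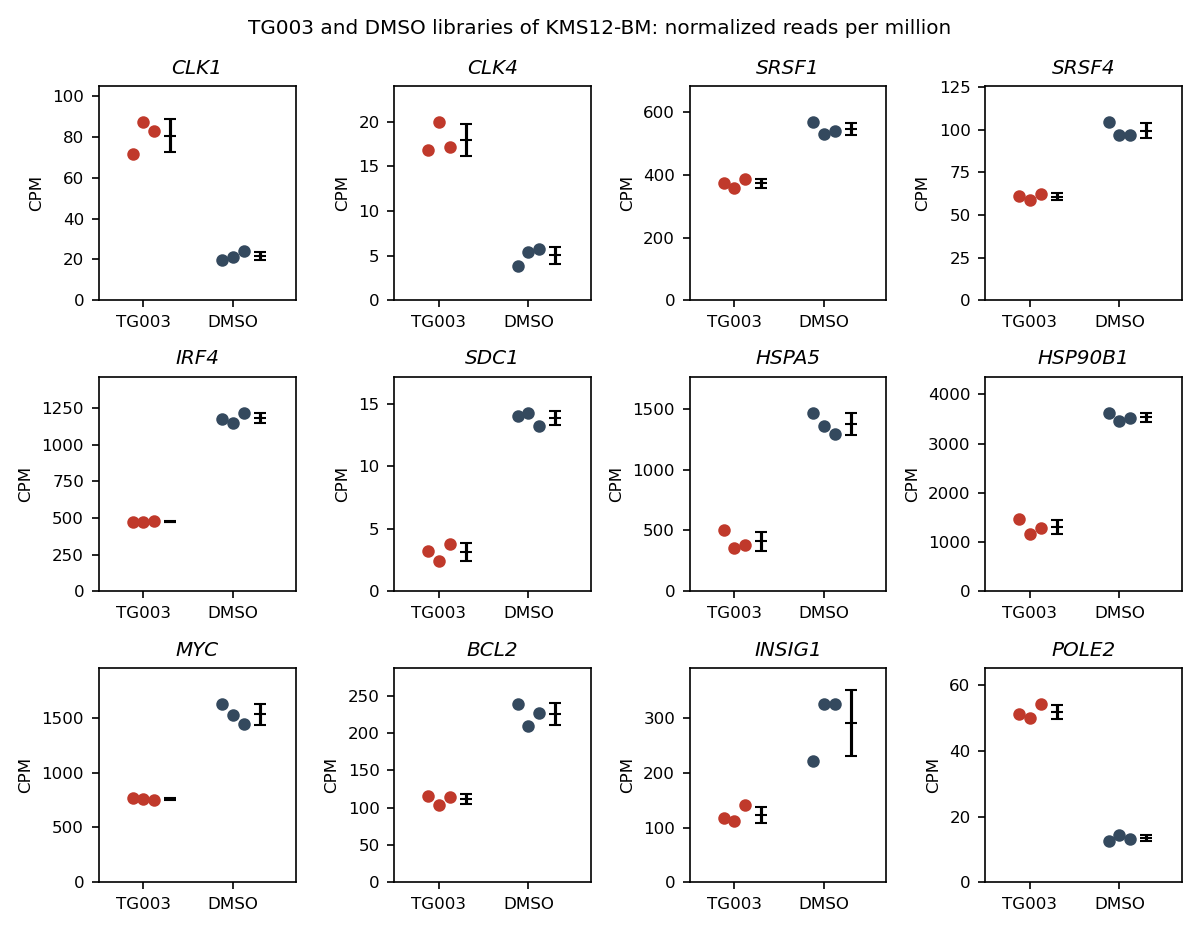
CPM of 12 genes in each of the 3 TG003 and 3 DMSO libraries of KMS12-BM (points), with the mean and SD beside each group; every vertical axis starts at 0. The points of the 2 groups do not overlap in any of the 12 genes: CLK1, CLK4 and POLE2 are higher with TG003, and the other 9 are lower.

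More than 1 kind of gene is in the plasma cell identity list, and most were lower. Beside plasma cell genes it holds B cell genes such as PAX5, BACH2, MS4A1, SPIB, CD79A and CD79B, and the drug receptor CRBN. Its counts are therefore not a measure of plasma cell identity alone. Of 30 measured genes, 18 were lower, 1 was higher and the median log2 was -0.68; among the 23 separable ones, 14 were lower and 1 higher. IRF4 (chr6:391739-411443 in GRCh37, plus strand) had 469.9, 475 and 479 CPM in the TG003 libraries, against 1177, 1150.5 and 1218 CPM in the DMSO libraries. The TG003 libraries differed among themselves by less than 10 CPM and lay far below the DMSO libraries (log2 -1.32 ± 0.066, adjusted p = 1.02e-08). PRDM1, the repressor that turns a B cell into a plasma cell, fell by 1.01 ± 0.074 on the log2 scale, and POU2AF1, a B cell coactivator of octamer factors, fell by 1.09 ± 0.069. XBP1, the transcription factor of the secretory programme, averaged 141 ± 7.52 CPM with TG003 and 303 ± 19.3 CPM with DMSO (log2 -1.11 ± 0.10, adjusted p = 1.78e-06; near copy). IKZF1, a lymphoid zinc finger factor, fell by 0.64. Its ubiquitin ligase receptor CRBN, through which immunomodulatory drugs act, was the called gene that went up (log2 0.31 ± 0.10, adjusted p = 0.0187), and it was not called with the exon-density trend removed (adjusted p = 0.435).

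The surface proteins SDC1, TNFRSF17 and CD38 are members of this list, and all 3 were lower. SDC1 (syndecan-1, CD138; chr2:20400558-20425194 in GRCh37, minus strand) had 3.24, 2.43 and 3.79 CPM in the TG003 libraries, against 14.0, 14.3 and 13.2 CPM in the DMSO libraries (log2 -2.12 ± 0.15, adjusted p = 3.77e-07). TNFRSF17 (BCMA, a receptor for survival signals) had 38.7, 39.6 and 42.9 CPM in the TG003 libraries, against 102, 122 and 143 CPM in the DMSO libraries (log2 -1.60 ± 0.12, adjusted p = 4.87e-07). The groups were separate for both. CD38 averaged 52.2 ± 8.04 CPM with TG003 and 102 ± 11.7 CPM with DMSO (log2 -0.96 ± 0.12, adjusted p = 4.29e-05; near copy). The summed level of the 34 list genes in the table was 2103 to 2256 CPM with TG003 and 3764 to 3890 CPM with DMSO. These sums, too, are relative to the reads in genes without scaling. Immunoglobulin constant genes held 0.382% to 0.484% of reads in genes with TG003 and 0.733% to 0.949% with DMSO.

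MYC, a driver of growth and ribosome production in myeloma, had 768, 755 and 749.6 CPM in the TG003 libraries, against 1626, 1522 and 1438 CPM in the DMSO libraries (log2 -1.01 ± 0.13, adjusted p = 6.23e-05), again without overlap. Of 12 genes of the MYC, MAX and MXD network, 4 were lower and 1 higher. MNT, a repressor that pairs with MAX, fell by 0.70, ZBTB17 (MIZ-1), through which MYC represses genes, rose by 1.12 ± 0.12, and MAX, the partner of MYC, was not called (log2 -0.14 ± 0.071, adjusted p = 0.103).

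Most genes of ER protein folding were lower. Of 42 chaperones and unfolded protein response genes, 27 were lower, 5 higher and the median log2 was -0.36; of the 25 separable ones, 15 were lower and 4 higher. The unfolded protein response raises many of these genes when ATF6 and XBP1 bind the ER stress element in their promoters, which is CCAAT and CCACG with 9 bases of any kind between them (CGTGG and ATTGG on the other strand). Searched on both strands, without mismatch, in the 250 bases before each start, the element lay in 22 of 27305 RefSeq promoters (0.0806%) and in 7 of the 38 promoters matched to this list (18.4%). Of those 7 genes, 6 were lower (HSPA5, HSP90B1, CALR, CANX, CRELD2 and XBP1) and ERO1B was higher; of the other 31, 20 were lower and 2 higher. The 250 bases before the start of 5 of them are shown 5′ to 3′ (RefSeq, GRCh38.p14), with each element in capitals, so that the shared letters can be set beside the responses below. A match is a description of the letters and not a measured binding site. The list was made of ER and unfolded protein response genes, so the 18.4% describes the list and not an effect of TG003. Of 3 motifs searched in 3 lists, 2 are given here. The ER stress element lay in 0 of 21 sterol and 0 of 47 ribosome biogenesis promoters. The E-box that MYC and others bind, CACGTG, lay in 5 of the 38 ER promoters (13.2%), 3 of the 21 sterol promoters (14.3%) and 5 of the 47 ribosome biogenesis promoters (10.6%), beside 6.49% of all promoters.
HSPA5, chr9:125241344-125241593, minus strand: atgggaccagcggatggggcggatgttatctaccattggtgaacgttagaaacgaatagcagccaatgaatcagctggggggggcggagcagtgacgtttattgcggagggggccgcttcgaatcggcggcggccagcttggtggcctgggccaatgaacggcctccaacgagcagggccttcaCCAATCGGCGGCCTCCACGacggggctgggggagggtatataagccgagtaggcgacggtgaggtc
HSP90B1, chr12:103930160-103930409, plus strand: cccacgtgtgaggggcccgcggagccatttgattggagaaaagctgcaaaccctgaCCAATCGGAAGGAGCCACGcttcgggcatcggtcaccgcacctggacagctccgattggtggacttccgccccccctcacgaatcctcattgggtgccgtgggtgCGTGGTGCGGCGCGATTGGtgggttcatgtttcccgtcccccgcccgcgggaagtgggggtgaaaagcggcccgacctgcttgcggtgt
CALR, chr19:12938359-12938608, plus strand: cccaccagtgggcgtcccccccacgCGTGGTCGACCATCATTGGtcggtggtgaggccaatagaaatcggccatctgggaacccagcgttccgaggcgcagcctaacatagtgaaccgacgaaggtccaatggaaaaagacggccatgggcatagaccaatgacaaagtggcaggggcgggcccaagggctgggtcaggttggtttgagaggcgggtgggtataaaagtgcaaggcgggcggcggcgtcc
XBP1, chr22:28800570-28800819, minus strand: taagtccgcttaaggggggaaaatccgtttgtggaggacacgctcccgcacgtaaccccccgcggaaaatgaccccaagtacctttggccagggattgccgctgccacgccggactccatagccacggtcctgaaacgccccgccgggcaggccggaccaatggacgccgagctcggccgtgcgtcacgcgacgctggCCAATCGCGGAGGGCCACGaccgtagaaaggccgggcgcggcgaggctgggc
ERO1B, chr1:236281959-236282208, minus strand: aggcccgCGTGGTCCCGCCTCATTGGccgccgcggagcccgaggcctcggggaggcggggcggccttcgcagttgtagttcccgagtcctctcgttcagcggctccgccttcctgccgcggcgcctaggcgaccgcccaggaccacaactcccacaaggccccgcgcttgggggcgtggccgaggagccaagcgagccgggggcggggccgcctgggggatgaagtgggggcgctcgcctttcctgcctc

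HSP90B1 holds 2 elements and the others 1 each. The element ended 47 bases before the start in HSPA5 and 33 bases before it in XBP1, but 206 bases before it in CALR and 224 bases before it in ERO1B. HSPA5 (BiP, the ER HSP70 that holds the stress sensors inactive) had 501, 352 and 382 CPM in the TG003 libraries, against 1466, 1360.4 and 1289.6 CPM in the DMSO libraries (log2 -1.74 ± 0.12, adjusted p = 1.88e-07; near copy). HSP90B1 (GRP94, the ER HSP90) had 1467, 1173 and 1281 CPM in the TG003 libraries, against 3628, 3454 and 3519 CPM in the DMSO libraries (log2 -1.43 ± 0.083, adjusted p = 4.08e-08; near copy and overlap). Both genes were lower in every TG003 library than in any DMSO library. CALR, a chaperone of glycoproteins, had 817, 619 and 753 CPM in the TG003 libraries, against 1655, 1412 and 1422 CPM in the DMSO libraries (log2 -1.04 ± 0.11, adjusted p = 9.07e-06) and is separable. CANX, its membrane-bound relative, averaged 448 ± 10.2 CPM with TG003 and 712 ± 20.9 CPM with DMSO (log2 -0.67 ± 0.074, adjusted p = 1.52e-05; overlap). CRELD2 was at the edge of the threshold (adjusted p = 0.0395) and was lost in 7 of the alternatives.

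Separable genes in which no exact match was found fell too. HYOU1, a large ER chaperone, fell by 0.88 ± 0.070, PDIA4, a disulphide isomerase, by 0.81 ± 0.084, and SDF2L1, which works with BiP, by 1.15 ± 0.19 on the log2 scale. The higher members were ERO1B, an oxidase that feeds disulphide bonds (log2 0.72 ± 0.13, adjusted p = 0.000708), EDEM2, which trims sugars of misfolded proteins (log2 0.73 ± 0.093, adjusted p = 4.79e-05), the sensor ATF6 (log2 0.23 ± 0.068, adjusted p = 0.0114; not called with a GC trend removed or without TG003 replicate 2), SEC24D, a coat protein of vesicles that leave the ER (log2 0.37 ± 0.12, adjusted p = 0.0207; not called with the exon-density trend removed, at 0.095), and PDIA3, another disulphide isomerase (log2 1.06 ± 0.12, adjusted p = 1.42e-05; near copy). PDIA3 changed sign when the counts of pseudogenes named for it were added to it. The sensors ERN1 (log2 -0.19 ± 0.12, adjusted p = 0.192) and EIF2AK3 (log2 0.10 ± 0.10, adjusted p = 0.404) were not called.

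**Figure D3:**
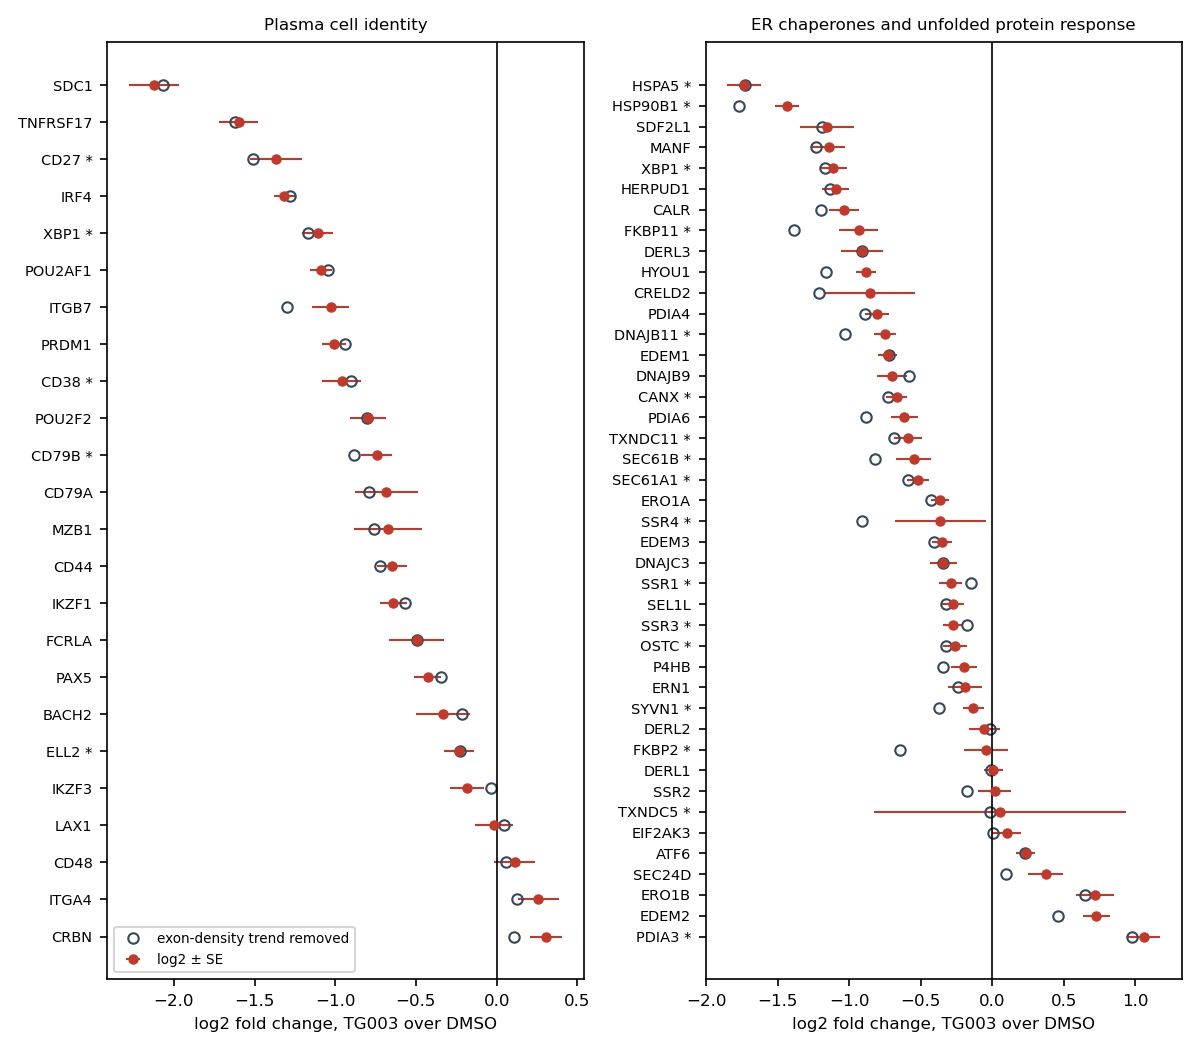
Log2 fold change of TG003 over DMSO in KMS12-BM with its standard error (filled points and bars), and the value with the exon-density trend removed (open points), for measured plasma cell identity genes (left) and ER genes (right) with a mean of at least 5 CPM in 1 of the groups; stars mark near copies or overlaps. Most points lie left of 0, from SDC1 (-2.12) and HSPA5 (-1.74) at the top to CRBN (0.31) and PDIA3 (1.06) at the bottom.

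The integrated stress response, in which ATF4 raises amino acid transporters and synthetases, showed no common direction. Of 34 genes, 10 were higher and 8 lower (8 and 10 with the exon-density trend removed). ATF4 itself was not called (log2 -0.0022 ± 0.088, adjusted p = 0.985; near copy). DDIT3 (CHOP), its pro-apoptotic target, had 26.9, 55.0 and 32.6 CPM in the TG003 libraries, against 20.5, 17.6 and 19.4 CPM in the DMSO libraries, so that every TG003 library was above every DMSO library, with 1 of them far above the rest (log2 0.99 ± 0.23, adjusted p = 0.00443; overlap). CTH, which makes cysteine, rose by 1.12 ± 0.26, whereas the amino acid transporter SLC1A4 fell by 0.78 ± 0.075 and the AP-1 repressor JDP2 by 0.95 ± 0.089. Of 20 cytosolic aminoacyl-tRNA synthetases, 2 were higher and 6 lower (none and 12 with the exon-density trend removed).

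Immediate-early genes, which growth signals switch on within minutes, were mostly lower. Of 24 measured, 15 were lower and 1 was higher, with a median log2 of -0.95. Of the 17 separable ones, 10 were lower and 1 higher. DUSP5, a phosphatase of nuclear ERK, had 8.71, 8.56 and 10.3 CPM in the TG003 libraries, against 26.6, 25.6 and 28.0 CPM in the DMSO libraries (log2 -1.54 ± 0.11, adjusted p = 4.52e-07; near copy). The zinc finger factor KLF10 averaged 13.4 ± 2.14 CPM with TG003 and 36.1 ± 0.337 CPM with DMSO (log2 -1.43 ± 0.12, adjusted p = 1.66e-06; near copy) and its relative KLF6 29.1 ± 1.86 CPM with TG003 and 64.5 ± 5.93 CPM with DMSO (log2 -1.15 ± 0.094, adjusted p = 1.06e-06). JUN and JUNB, both AP-1 subunits, fell by 1.03 ± 0.30 and 0.91 ± 0.24. NF-kappaB factors and targets were mixed, with 6 higher and 8 lower of 26 (3 and 8 with the exon-density trend removed).

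Survival genes of the BCL2 family were among those that fell. Of 31 apoptosis genes, 15 were lower and 4 higher (8 and 3 of the 20 separable ones). BCL2 (chr18:60790579-60987361 in GRCh37, minus strand), which holds BAX and BAK inactive, had 116, 104 and 115 CPM in the TG003 libraries, against 239, 209.6 and 227 CPM in the DMSO libraries (log2 -1.01 ± 0.075, adjusted p = 4.32e-07). MCL1, the family member on which many myelomas depend, averaged 159 ± 7.35 CPM with TG003 and 269 ± 13.5 CPM with DMSO (log2 -0.75 ± 0.070, adjusted p = 3.71e-06; overlap). The groups did not overlap for either gene. BMF, a member of the opposite, pro-apoptotic class, fell by 1.09 ± 0.12. BCL2L1 (log2 -0.14 ± 0.094, adjusted p = 0.217) and BCL2L11 (log2 -0.14 ± 0.092, adjusted p = 0.227) were not called, and APAF1, the platform of caspase-9, rose by 0.54 ± 0.13. AEN, a nuclease of apoptosis, fell by 0.75 ± 0.088, while DDB2, a damage-recognition gene, rose by 0.76 ± 0.10 (near copy). CDKN1A (p21), at 0.288 ± 0.0333 CPM with TG003 and 0.481 ± 0.191 CPM with DMSO, and MDM2 were not called (log2 -0.77 ± 0.32, adjusted p = 0.0590; log2 -0.095 ± 0.093, adjusted p = 0.400). AEN, DDB2, CDKN1A and MDM2 are given singly and stand for no list.

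Most genes of the glycolysis and hypoxia list were lower. Beside glycolytic enzymes it holds hypoxia genes such as VEGFA, ADM and NDRG1, so its counts are not of glycolysis alone. Of 34 glycolysis and hypoxia genes, 23 were lower, 1 was higher and the median log2 was -0.54; of the 14 separable ones, 10 were lower and none higher. HK2, which traps glucose in the cell, had 56.1, 48.0 and 52.9 CPM in the TG003 libraries, against 118, 107 and 128 CPM in the DMSO libraries (log2 -1.17 ± 0.086, adjusted p = 4.38e-07; near copy). PKM, pyruvate kinase, had 1012, 912 and 1027 CPM in the TG003 libraries, against 1863, 1808 and 1774 CPM in the DMSO libraries (log2 -0.88 ± 0.070, adjusted p = 7.96e-07; near copy). LDHA, which makes lactate, averaged 782 ± 95.9 CPM with TG003 and 1538 ± 81.2 CPM with DMSO (log2 -0.98 ± 0.090, adjusted p = 3.24e-06; near copy). The glucose transporter SLC2A1 is separable and averaged 55.8 ± 1.28 CPM with TG003 and 83.4 ± 2.87 CPM with DMSO (log2 -0.58 ± 0.067, adjusted p = 2.09e-05). The gene that was higher, PGAM1 (log2 1.30 ± 0.074, adjusted p = 3.86e-08), has near copies.

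More sterol genes were lower than higher. Of 27 genes of cholesterol synthesis and its SREBP control, 15 were lower and 2 higher, with a median log2 of -0.42. INSIG1, the sterol sensor that holds SREBP in the ER and is itself an SREBP target, had 118, 112 and 141 CPM in the TG003 libraries, against 223, 327 and 326 CPM in the DMSO libraries (log2 -1.24 ± 0.15, adjusted p = 3.84e-05). HMGCS1, which makes HMG-CoA, averaged 152 ± 13.9 CPM with TG003 and 318 ± 88.0 CPM with DMSO (log2 -1.07 ± 0.17, adjusted p = 0.000420), and FDFT1, squalene synthase, 94.3 ± 13.8 CPM with TG003 and 170.3 ± 8.51 CPM with DMSO (log2 -0.85 ± 0.10, adjusted p = 2.88e-05). SREBF2, the SREBP of sterol genes, fell by 0.56 ± 0.12 on the log2 scale. SREBF1 was not called (log2 -0.031 ± 0.14, adjusted p = 0.857), and SCAP, the escort of SREBP, rose by 0.50 ± 0.074. Of 20 fatty acid genes, 5 were higher and 7 lower (2 and 10 with the exon-density trend removed), and of the 13 separable ones 4 were higher and 3 lower. NR1H3 (LXR-alpha), a receptor for oxidised sterols, had 20.5, 26.4 and 24.1 CPM in the TG003 libraries, against 5.27, 5.96 and 5.002 CPM in the DMSO libraries (log2 2.13 ± 0.13, adjusted p = 9.3e-08).

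More genes of ribosome building were lower than higher, whereas in JJN3 more were higher than lower. Of 55 ribosome biogenesis and nucleolar genes, 30 were lower and 5 higher, with a median log2 of -0.25; of the 24 separable ones, 12 were lower and 2 higher. With the exon-density trend removed, 42 of the 55 were lower and 4 higher. POLR1B, a core subunit of RNA polymerase I, had 87.0, 81.0 and 89.9 CPM in the TG003 libraries, against 154, 143 and 148 CPM in the DMSO libraries (log2 -0.79 ± 0.071, adjusted p = 2.74e-06). The helicase DDX21 averaged 286 ± 20.5 CPM with TG003 and 504 ± 14.0 CPM with DMSO (log2 -0.82 ± 0.071, adjusted p = 1.93e-06; near copy). RRP1B, a nucleolar assembly factor, fell by 0.67 ± 0.070. BOP1, of the large subunit assembly complex, rose by 0.77 ± 0.14, and so did NPM1, by 1.51 ± 0.069, a nucleolar chaperone with near copies whose difference shrank to 0.33 on the log2 scale when counts of its pseudogenes were added.

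In JJN3, 27 of the same 55 genes were higher and 5 lower in TG003 (background 27.9% and 27.4% of 11915 genes), with a median of 0.23. The difference between the lines was itself called, in a joint fit of 18 libraries, in 35 of the 55: 34 were lower in KMS12-BM relative to JJN3 and 1 was higher, beside 8.17% and 7.99% of all 12957 genes tested. WDR43, a processing factor of the small subunit, had 98.9, 95.7 and 105 CPM in the TG003 libraries, against 137, 150.3 and 138 CPM in the DMSO libraries, and in JJN3 118, 128 and 123 CPM in the TG003 libraries, against 96.2, 83.2 and 88.3 CPM in the DMSO libraries. It was lower in the treated libraries of the 1 line and higher in those of the other (difference -0.95 ± 0.10, adjusted p = 6.91e-06). For POLR1B the difference was -0.65 ± 0.10, adjusted p = 0.000261, and for MYC -0.53 ± 0.15, adjusted p = 0.0206. The exon-density trend was not removed in JJN3 or in this joint fit.

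**Figure D4:**
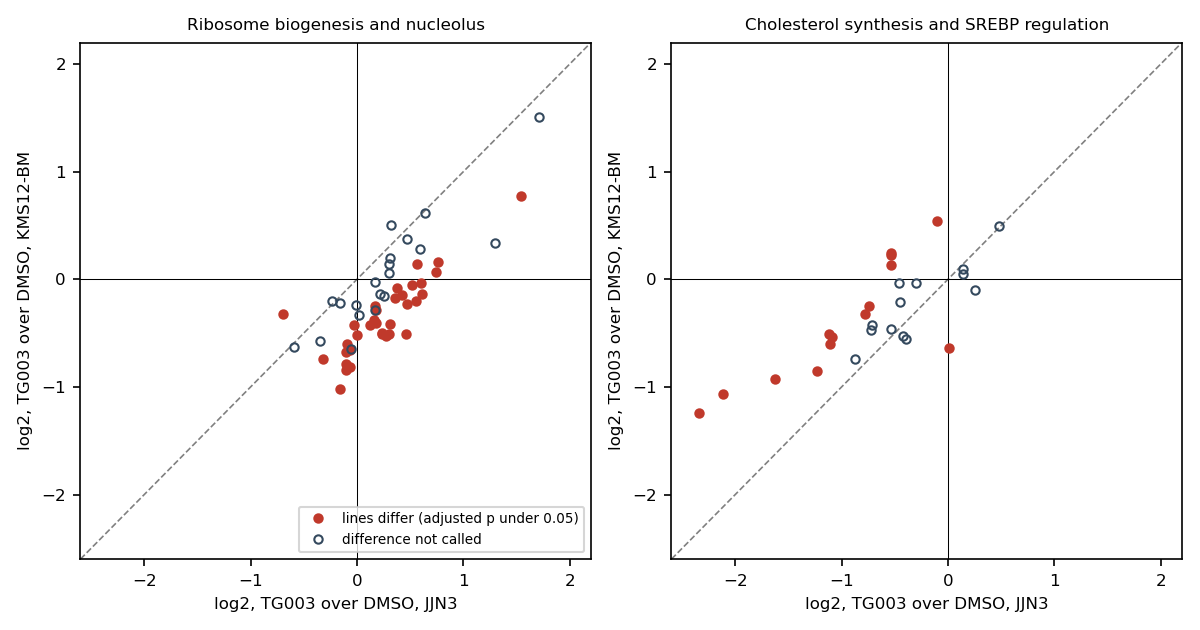
Log2 fold change of TG003 over DMSO in KMS12-BM (vertical axis) against JJN3 (horizontal axis) for the ribosome biogenesis list (left) and the cholesterol list (right); filled points are genes whose difference between the lines was called, and the dashed line marks equal change. Most filled points lie below the dashed line on the left, and all but 1 lie above it on the right.

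For 13 sterol genes the log2 fold change in KMS12-BM lay above that in JJN3. In JJN3, 21 of 27 were lower and 2 higher, and the difference was called in 14 of the 27, with those 13 higher in KMS12-BM relative to JJN3 and 1 lower. INSIG1 in JJN3 had 536, 614 and 796 CPM in the TG003 libraries, against 2642, 3178 and 4035 CPM in the DMSO libraries, a larger fall than in KMS12-BM (difference 1.12 ± 0.27, adjusted p = 0.0103), and HMGCS1 differed by 1.07 ± 0.21, adjusted p = 0.00284. Glycolysis and hypoxia genes also differed in 10 of 34, 9 of them higher in KMS12-BM relative to JJN3. Of the ER list, 10 of 42 genes were lower in KMS12-BM relative to JJN3 and 2 higher. HSPA5 in JJN3 had 439, 410.0 and 427 CPM in the TG003 libraries, against 699, 679 and 701 CPM in the DMSO libraries, a smaller fall than in KMS12-BM (difference -1.01 ± 0.13, adjusted p = 5.79e-05). SDC1 differed by -1.23 ± 0.16, adjusted p = 4.53e-05 and XBP1 by -0.67 ± 0.14, adjusted p = 0.00280, whereas the difference for IRF4 was not called (-0.25 ± 0.14, adjusted p = 0.291).

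Replication and repair genes leaned upward. Of 57 genes of DNA replication and the G1/S step, 26 were higher and 7 lower; with the exon-density trend removed, 16 were higher and 11 lower. POLE2 (chr14:50110273-50155140 in GRCh37, minus strand), the second subunit of DNA polymerase epsilon, had 51.3, 50.0 and 54.3 CPM in the TG003 libraries, against 12.7, 14.4 and 13.3 CPM in the DMSO libraries (log2 1.94 ± 0.085, adjusted p = 2.79e-09), and its log2 was 1.20 with the trend removed. CDC7, the kinase that fires origins, rose by 0.86 ± 0.10. CCND1 (cyclin D1) had 742, 467 and 538 CPM in the TG003 libraries, against 1184, 883 and 841 CPM in the DMSO libraries (log2 -0.73 ± 0.18, adjusted p = 0.00537). The highest TG003 library lay below the lowest DMSO library. Of 41 DNA repair genes, 19 were higher and 3 lower (11 and 4 with the trend removed). BRCA2, a mediator of homologous recombination, averaged 14.5 ± 0.421 CPM with TG003 and 4.87 ± 0.511 CPM with DMSO (log2 1.57 ± 0.12, adjusted p = 6.18e-07), and FANCL, the ubiquitin ligase of the Fanconi pathway, 28.0 ± 1.49 CPM with TG003 and 9.23 ± 1.08 CPM with DMSO (log2 1.60 ± 0.16, adjusted p = 5.12e-06).

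Mitotic genes leaned downward. Of 48 G2/M genes, 20 were lower and 6 higher, and with the exon-density trend removed 28 were lower and 1 higher. PLK1, the kinase of mitotic entry, averaged 127 ± 6.12 CPM with TG003 and 263 ± 5.27 CPM with DMSO (log2 -1.04 ± 0.12, adjusted p = 2.01e-05), and CCNB1, cyclin B1, 89.2 ± 3.46 CPM with TG003 and 143 ± 10.4 CPM with DMSO (log2 -0.69 ± 0.091, adjusted p = 6.26e-05). CDC25C, the phosphatase that switches on CDK1, rose by 0.85 ± 0.11. The proliferation marker MKI67 was not called (log2 -0.28 ± 0.14, adjusted p = 0.107; near copy). Of 21 replication-dependent histone genes, whose messengers normally end without a poly(A) tail, 15 were higher and none lower, with a median log2 of 0.98; 5 of the 21 are separable, of which 3 were higher. H2BC21 averaged 13.1 ± 2.36 CPM with TG003 and 3.82 ± 0.239 CPM with DMSO (log2 1.78 ± 0.17, adjusted p = 3.96e-06; near copy).

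**Figure D5:**
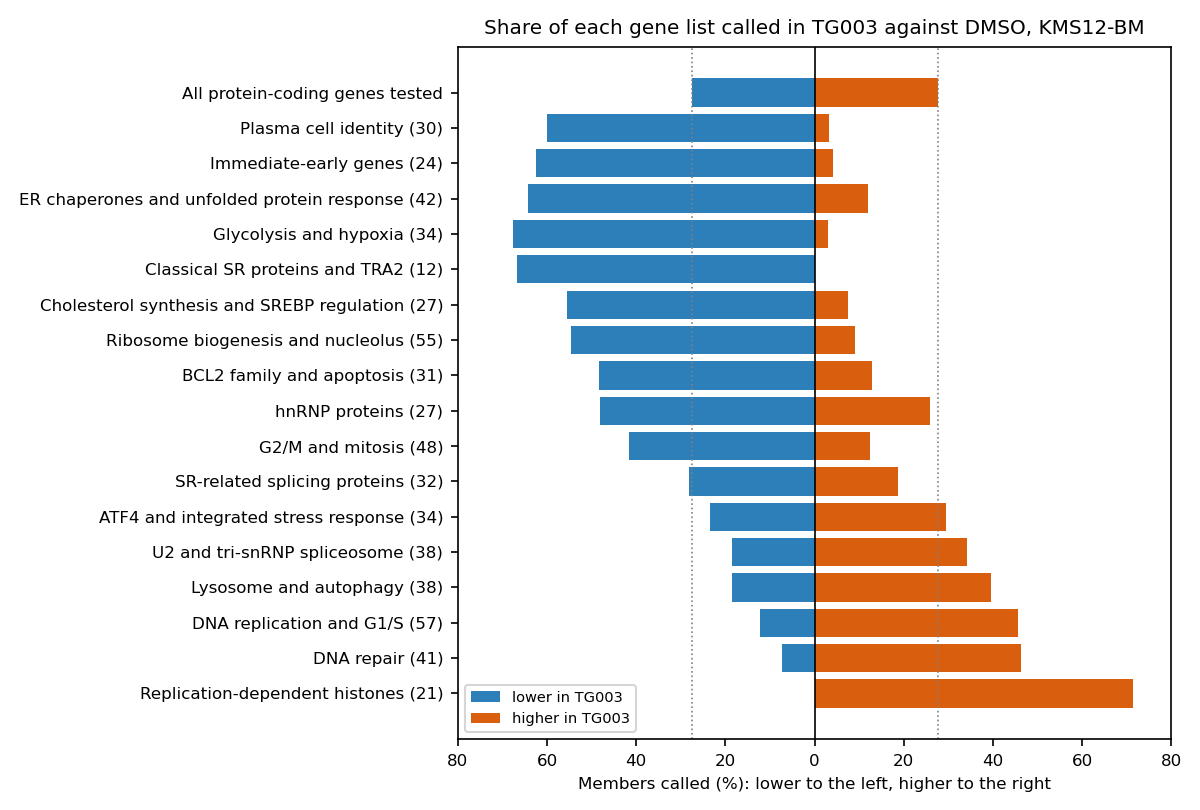
Percent of the measured members of each gene list called lower (left of 0) and higher (right of 0) in TG003 against DMSO in KMS12-BM, with the number of members in parentheses; dotted lines mark the shares over all protein-coding genes tested, 27.4% and 27.6%. Of the lists drawn, the glycolysis and hypoxia, SR protein, ER, immediate-early and plasma cell lists reach furthest left, and the histone, repair and replication lists furthest right.

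The remaining lists were mixed, and several changed with the exon-density trend removed. Of 38 lysosome and autophagy genes, 15 were higher and 7 lower (9 and 11 with the trend removed), and of 39 proteasome genes 4 were higher and 10 lower (2 and 22). Of 28 NRF2 and redox genes, 4 were higher and 7 lower (3 and 11), with HMOX1, the haem oxygenase, down by 0.49 ± 0.12. Cytosolic heat shock genes split 6 higher and 7 lower of 25 (4 and 9), nuclear genes of oxidative phosphorylation 13 and 14 of 49 (6 and 18), and tubulins 3 and 5 of 13 (3 and 4). None of the 13 mitochondrially encoded messengers was called in edgeR, where 0 had an unadjusted p under 0.05. DESeq2 called 1 of them and limma voom 1. CYP1A1, the standard target of the aryl hydrocarbon receptor, fell by 0.46 ± 0.091 (near copy). Of 10 measured markers of other cell types, 4 were lower and none higher (6 and none with the trend removed).

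Interferon genes divided, with 7 higher and 9 lower of 22 (5 and 10 with the exon-density trend removed). OAS1, a sensor of double-stranded RNA, had 5.95, 10.7 and 7.20 CPM in the TG003 libraries, against 2.43, 1.72 and 2.24 CPM in the DMSO libraries (log2 1.90 ± 0.22, adjusted p = 2.46e-05). IRF1, a factor that interferon induces, averaged 12.1 ± 1.41 CPM with TG003 and 8.23 ± 0.730 CPM with DMSO (log2 0.55 ± 0.14, adjusted p = 0.00540). In JJN3, IRF1 had 26.4, 27.6 and 23.7 CPM in the TG003 libraries, against 45.5, 58.0 and 60.9 CPM in the DMSO libraries and thus went the opposite way (difference 1.66 ± 0.19, adjusted p = 1.38e-05).

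Separable genes were taken here with an adjusted p under 0.05, at least 5 CPM on average and groups that do not overlap. Of these genes EFCAB12 showed the largest rise. EFCAB12, an EF-hand gene named for calcium-binding motifs, had 10.2, 10.9 and 8.74 CPM in the TG003 libraries, against 0.555, 0.657 and 0.529 CPM in the DMSO libraries (log2 4.09 ± 0.15, adjusted p = 6.88e-10). LLGL1, a cell polarity gene, had 13.6, 12.5 and 11.8 CPM in the TG003 libraries, against 4.02, 3.48 and 2.95 CPM in the DMSO libraries (log2 1.87 ± 0.15, adjusted p = 1.13e-06). Separation of the groups and the p-value were conditions of the choice, and the mean could be met by the higher group alone. Other large rises were in the cilium motor gene DYNC2LI1 (1.77 ± 0.19), the actin-binding TPM1 (1.69 ± 0.12), the ubiquitin ligase NEDD4 (1.67 ± 0.12), the meiotic recombinase DMC1 (1.66 ± 0.16), the mitochondrial ribosomal gene MRPL52 (1.62 ± 0.17) and BEND6 (1.61 ± 0.14), all as log2 values with standard errors.

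The largest falls under the same conditions are given next. TMEM200A had 1.35, 1.04 and 1.34 CPM in the TG003 libraries, against 10.1, 11.1 and 9.86 CPM in the DMSO libraries (log2 -3.04 ± 0.15, adjusted p = 7.67e-09). F2RL3, the thrombin receptor PAR4, had 2.68, 1.30 and 2.65 CPM in the TG003 libraries, against 20.2, 17.6 and 16.0 CPM in the DMSO libraries (log2 -2.997 ± 0.25, adjusted p = 2.63e-06). CCR2, a chemokine receptor, had 4.12, 4.12 and 3.76 CPM in the TG003 libraries, against 30.0, 25.1 and 28.2 CPM in the DMSO libraries (log2 -2.80 ± 0.10, adjusted p = 5.7e-10). DDN fell by 2.81 ± 0.20, the secreted glycoprotein CHI3L1 by 2.77 ± 0.24, the glycosyltransferase B3GNT4 by 2.38 ± 0.22 and the guanine nucleotide exchange factor ARHGEF17 by 2.05 ± 0.20 on the log2 scale. For TMEM200A and F2RL3 the fall was larger than in JJN3 (differences -2.12 ± 0.20, adjusted p = 1.15e-06 and -2.59 ± 0.25, adjusted p = 4.12e-06), and for LLGL1 the rise was larger (difference 1.36 ± 0.17, adjusted p = 2.7e-05).

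Many of the largest changes over all genes were in genes with near copies. Of 328 genes with a log2 beyond 2 in either direction, 133 had a near copy, beside 3424 of all 11684. Of the 12 largest rises that met the naming rule 8 had one, and of the 12 largest falls all 12. EIF2S3B and PABPC3, copies of messengers of other genes, fell by 10.86 and 10.70 on the log2 scale. EIF2S3B had 0.0531, 0.0649 and 0.0505 CPM in the TG003 libraries, against 105, 105 and 118 CPM in the DMSO libraries. PSMC6, a proteasome ATPase with a near copy, was among the rises (log2 1.96 ± 0.12, adjusted p = 1.02e-07). For these genes a change in RNA and the read placement described at the start cannot be told apart.

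The lines also differed in BTK and PLCD1, chosen by the size of the difference among separable genes. BTK, the kinase of the B cell receptor, had 138, 119 and 142 CPM in the TG003 libraries, against 189, 226 and 207 CPM in the DMSO libraries (log2 -0.64 ± 0.10, adjusted p = 0.000284). In JJN3 it had 0.925, 0.697 and 0.942 CPM in the TG003 libraries, against 0.285, 0.0545 and 0.245 CPM in the DMSO libraries, less than 1 CPM throughout (difference -2.81 ± 0.40, adjusted p = 0.000134). PLCD1, a phospholipase C, rose to 25.7 CPM with TG003, against 9.40 CPM with DMSO (log2 1.45 ± 0.12, adjusted p = 1.48e-06), and differed from JJN3 by 1.85 ± 0.28, adjusted p = 0.000221, where it too was near 1 CPM. Over all genes, 1035 differences were higher (7.99%) and 1058 lower (8.17%) in KMS12-BM relative to JJN3.

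Amiloride, given to the same line at 0.1 mM, is set beside TG003 for a few members. Both comparisons use the same DMSO libraries, so their values are listed and not compared, and with amiloride 4328 genes (37.0%) were higher and 4354 (37.3%) lower (74.3% in all). On the log2 scale IRF4 was -1.32 ± 0.066 with TG003 and 0.85 ± 0.065 with amiloride, XBP1 -1.11 ± 0.10 and 0.76 ± 0.095, HSPA5 -1.74 ± 0.12 and -2.07 ± 0.12. SRSF4 was -0.71 ± 0.078 with TG003 and 0.66 ± 0.077 with amiloride, BCL2 -1.01 ± 0.075 and 0.90 ± 0.074, POLE2 1.94 ± 0.085 and -0.52 ± 0.086. CLK1 was 1.89 ± 0.15 with TG003 and 2.49 ± 0.15 with amiloride, and CLK4 1.82 ± 0.16 and 1.38 ± 0.16. CLK3 was 0.91 ± 0.10 with TG003 and 1.76 ± 0.10 with amiloride, and CLK2 0.73 ± 0.086 and -0.18 ± 0.086. In all of these DMSO is the denominator.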

How the data were processed

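RNA of KMS12-BM and JJN3 cells was sequenced from strand-specific libraries, per the labels' protocols. Per the submitters' processing notes, the authors used cutadapt 1.4, TopHat2 2.0.11 with hg19, HTSeq 0.6.1p1 and DESeq2 1.12.4. Of the alignment options and the counting annotation, nothing was given in the sources used here. The authors deposited whole-number read counts per Ensembl gene and library, which were used as deposited; 3 deposited normalized tables were not used. HTSeq's counts of records outside genes made up 17.5% to 31.2% of a library over the series and entered no test.

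Gene class, position and exons came from GENCODE release 44 lifted to GRCh37, which matched 55538 of 57905 identifiers. Near copies were found with minimap2 2.31 between annotated transcripts and against the GRCh37 genome, and from the names of pseudogenes. Exon overlaps were found with bedtools 2.31.1. Promoters came from RefSeq (GRCh38.p14).

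Counts were fitted with edgeR 4.0.16 in R 4.3.3: filterByExpr (minimum count 10, total 15), TMM scaling and robust quasi-likelihood F tests on the 9 libraries of a line, or on all 18 for the difference between the lines. Adjusted p are edgeR's, except where DESeq2 or limma voom is named, and the standard error is the size of the log2 fold change divided by the square root of F. The script was also run on simulated counts drawn without the library-number sets described below, and the outcome is not reported here. Reads in genes per library were 29794926 or more in KMS12-BM and 23707695 or more over the series, and counts are of reads, not of molecules. Replicates differed by more than sampling noise, with 13.2 to 38.5 times the variance that counting gives.

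Library numbers run in sets with 1 library of each group, and numbers pair the samples here: over 9438 genes, deviations of same-set TG003 and DMSO libraries from their group means correlated at 0.463, 0.157 and 0.377, and those of other pairs at -0.402 to 0.130. The set was a block in an alternative only.

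Other alternatives were median-of-ratios, upper-quartile and members-only TMM scaling, no filter or 1 CPM in 3 libraries, DESeq2 1.42.0, limma voom (limma 3.58.1), the 6 libraries alone, summed pseudogenes, a GC trend removed, and each library left out. Removal of the exon-density trend, restriction to separable genes and their selection by size were chosen after seeing the data. The members, the 32 gene lists used and the genes named were chosen with earlier results of these data known. Of the 118 genes named, 61 follow the rule. It took the 12 largest rises and falls with an adjusted p under 0.05, a mean of at least 5 CPM, ranges that do not overlap and no pseudogene named for the gene. It also took up to 2 called members of each list in each direction with the smallest adjusted p, a set of fixed genes, and the largest differences between the lines. Not all genes that the rule picked are named. A further 17 came from the same selection among separable genes, and 40 were added after their values were seen to fill out the lists, among them SRSF2, CALR, TNFRSF17, JUN, LDHA, HMGCS1, CCNB1, IRF1 and WDR43. Some genes, 1 motif and 1 list are not reported here. A list on the aryl hydrocarbon receptor was not used because it held a gene that does not belong to it. Counts in lists are of measured members, and 11 list symbols had no match in the table.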

Additional observations from a re-analysis of the deposited data

Results flagged for a closer look

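The response to TG003 differed between KMS12-BM and JJN3 at an adjusted p under 0.05, in edgeR's interaction test over 18 libraries, in 47 of the genes named above. In parentheses is the log2 fold change in KMS12-BM minus that in JJN3. A negative value is thus a larger fall, a smaller rise or a change of direction downward in KMS12-BM. Of the 12957 protein-coding genes tested, 16.2% differed. The genes were partly named after their values were seen, so their number is a description. Read placement differed in the same direction between the TG003 and DMSO libraries of both lines. The correlation of fold change with exon junctions per kb over separable genes was 0.336 in KMS12-BM and 0.476 in JJN3. The part of either in these differences was not tested.

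Among splicing kinases and factors the differences were in CLK2 (-0.50), CLK3 (0.72), SRPK1 (-0.36), SRSF2 (-0.56), SRSF7 (-0.69), THRAP3 (-0.52) and BCLAF1 (-0.76). Among plasma cell and ER genes they were in SDC1 (-1.23), XBP1 (-0.67), POU2AF1 (-0.44), IKZF1 (-0.46), HSPA5 (-1.01), HSP90B1 (-0.35), CALR (-0.64) and HYOU1 (-0.56). Each of these genes fell further in KMS12-BM than in JJN3. In the MYC and ribosome biogenesis lists they were in MYC (-0.53), MNT (-0.53), ZBTB17 (0.80), POLR1B (-0.65), DDX21 (-0.73), RRP1B (-0.55), WDR43 (-0.95) and BOP1 (-0.75). Of these, ZBTB17 was the one with a positive difference.

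The sterol genes INSIG1 (1.12), HMGCS1 (1.07) and FDFT1 (0.40) fell less in KMS12-BM than in JJN3, and NR1H3 (0.79) rose more in KMS12-BM. In stress, survival, glycolysis and growth-signal genes the differences were in HMOX1 (-0.75), CTH (0.94), BCL2L1 (0.44), AEN (-0.63), HK2 (-0.71) and KLF6 (-0.48). In interferon genes they were in OAS1 (1.73) and IRF1 (1.66). In cell cycle, repair and histone genes they were in CCNB1 (-0.53), CDC25C (0.53), CDC7 (0.56), BRCA2 (0.76) and H2BC21 (1.13). In genes named for the size of their change they were in TMEM200A (-2.12), F2RL3 (-2.59), DDN (-1.13), LLGL1 (1.36), BTK (-2.81), PLCD1 (1.85) and EIF2S3B (-4.16). In JJN3, BTK was under 1 CPM in every library and PLCD1 averaged 0.845 CPM with TG003 and 1.10 CPM with DMSO, and EIF2S3B has a near copy.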

How the results depend on the processing

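Under 12 other settings the genes higher in TG003 numbered 2502 to 3831 and those lower 2643 to 4180, against 3227 and 3203. With each library left out in turn they numbered 2673 to 2964 and 2716 to 3019. With the library-number set as replicate block they were 3519 and 3527, and the block ended no call of a gene named above. Only genes without a pseudogene named for them gave 2716 and 2723, and only genes without a near copy or an overlap 1819 and 1899 of 6778, since fewer genes were counted. The share of higher genes among those called was 50.2% as reported, 59.2% with upper-quartile factors and 40.1% with a GC trend removed, which gave 2797 higher and 4180 lower. Removal of the GC trend, like that of the exon-density trend, also shifted the median log2 of all genes, by -0.084 and -0.061. Differences between the lines numbered 2098 with median-of-ratios factors and 2358 with the replicate block, against 2093.

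Of the single-gene values under alternatives, 2095 kept their direction and side of the threshold, 22 fell short of it, 5 newly passed it and 1 changed sign. PDIA3 turned to -0.49, adjusted p = 0.000356, with pseudogene counts summed into their parents. NPM1 moved to 0.33, adjusted p = 0.00125, under the same sum. Calls lost in at least 1 alternative were those of CRELD2, CRBN, MZB1, SEC24D, ATF6 and HEXIM1. Without TG003 replicate 2 the adjusted p was 0.0559 for ATF6, 0.0711 for CRBN, 0.127 for CRELD2, 0.0721 for MZB1 and 0.0689 for SEC24D. Without DMSO replicate 1 it was 0.0698 for CRBN, 0.140 for CRELD2, 0.0600 for MZB1 and 0.0753 for SEC24D, while CDKN1A (-1.01, adjusted p = 0.0126) and MAX (-0.19, adjusted p = 0.0440) were then called. With a GC trend removed ATF6 was not called (0.074, adjusted p = 0.366) and MDM2 was (-0.26, adjusted p = 0.0191). MKI67 was called in the fit of the 6 libraries alone (-0.28, adjusted p = 0.0315). List medians moved by more than the spread between TG003 libraries in 127 of 680 cases. Depth was at least 29794926 reads in genes per KMS12-BM library and 23707695 over the series, so genes under 1 CPM, such as CDKN1A in KMS12-BM, rest on few reads.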
